A study of Mus musculus with 36 samples.

Results

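The 8 genes described here are Mtm1, Inf2, Igsf3, Oprl1, Tcerg1l, Gprin3, Nectin3 (listed as Pvrl3 in older annotation) and Mndal, 8 of the 18193 genes that the arrays name. They were chosen because their transcripts were higher in the cerebellum of stg-/- mice than in that of stg+/+ mice and were not called in the other lines, so their change in stg cerebellum is a description and is given with no p-value. Where their calls there are counted in gene lists or followed through other settings, the choice fixed them. All 23 of the 45101 probe sets annotated to them alone were followed, and for each gene the values below are those of its brightest probe set on average over all arrays. Of the 23, 22 passed the filter on low signal in cerebellum and 20 in forebrain. The probe sets that failed in forebrain belonged to Tcerg1l, Nectin3 and Mndal, and the Tcerg1l one failed in cerebellum too.

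RNA from cerebellum and from forebrain was hybridised to 36 arrays in 12 groups of 3. The groups were stg-/-, tg-/- and lh-/- mice, each with the +/+ mice of its own line, stg+/+, tg+/+ and lh+/+, in both tissues. The reference annotation lists stg, tg and lh as synonyms of Cacng2, Cacna1a and Cacnb4, which encode the stargazer, tottering and lethargic calcium channel subunits. The labels give no age, strain or treatment and do not tie the 2 tissues to individual animals, so the p-values below measure the spread between these samples.

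Stargazer, tottering and lethargic mice share ataxia and absence seizures. The Cacng2 product also carries AMPA receptors to the synapse, and in stargazer the cerebellar granule cells lack synaptic AMPA currents. The cerebellum is dominated by granule cells, whereas the forebrain holds cortex, hippocampus, striatum and thalamus, so many transcripts are abundant in one tissue and scarce in the other. One question here was whether the transcripts that were higher in stg-/- cerebellum were of the kind that is normally higher in forebrain, called forebrain-type below.

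The 8 genes lie on 8 different chromosomes, none of them chromosome 15, where Cacng2 is. In GRCm38.p6 coordinates they are Mtm1 at chrX:71210767-71315413, Inf2 at chr12:112588744-112615557, Igsf3 at chr3:101376672-101463060, Oprl1 at chr2:181715000-181720985, Tcerg1l at chr7:138208972-138397730, Gprin3 at chr6:59344500-59426306, Nectin3 at chr16:46387665-46498535 and Mndal at chr1:173857215-173880382. Oprl1 and Cacnb4, the gene read as lethargic, are both on chromosome 2, far apart. The genes are therefore not neighbours of the stg mutation on its own chromosome.

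The starts of 4 of them are printed because they show the range of sequence among the members: Inf2 and Tcerg1l are forebrain-type genes with GC-rich starts, Oprl1 is a forebrain-type gene without one, and Mndal has the poorest start in G and C. Each window holds 250 bases before and 50 after a transcription start annotated by RefSeq on GRCm38.p6 and is written 5′ to 3′ on the strand of the gene. Capitals mark the GC box (GGGCGG), the AP-1 motif (TGANTCA) and the TATA box (TATAAA), each searched on both strands.
Inf2, chr12:112588517-112588816, plus strand: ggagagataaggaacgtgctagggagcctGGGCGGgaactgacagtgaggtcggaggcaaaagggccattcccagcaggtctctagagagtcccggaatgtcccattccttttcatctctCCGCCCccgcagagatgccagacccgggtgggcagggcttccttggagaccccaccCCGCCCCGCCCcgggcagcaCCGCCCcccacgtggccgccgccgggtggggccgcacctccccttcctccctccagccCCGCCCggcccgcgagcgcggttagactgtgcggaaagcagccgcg
Tcerg1l, chr7:138397681-138397980, minus strand: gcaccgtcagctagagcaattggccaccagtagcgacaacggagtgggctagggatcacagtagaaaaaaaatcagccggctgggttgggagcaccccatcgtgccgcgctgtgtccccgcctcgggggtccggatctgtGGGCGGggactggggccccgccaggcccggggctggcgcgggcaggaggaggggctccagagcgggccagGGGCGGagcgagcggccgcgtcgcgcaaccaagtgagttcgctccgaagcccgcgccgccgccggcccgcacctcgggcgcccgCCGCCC
Oprl1, chr2:181714766-181715065, plus strand: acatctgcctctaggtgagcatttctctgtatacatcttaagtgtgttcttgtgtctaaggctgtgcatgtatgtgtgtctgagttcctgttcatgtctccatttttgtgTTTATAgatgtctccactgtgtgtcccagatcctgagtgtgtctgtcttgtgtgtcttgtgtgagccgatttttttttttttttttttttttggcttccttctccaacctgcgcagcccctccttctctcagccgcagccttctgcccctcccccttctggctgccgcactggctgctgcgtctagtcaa
Mndal, chr1:173879909-173880208, minus strand: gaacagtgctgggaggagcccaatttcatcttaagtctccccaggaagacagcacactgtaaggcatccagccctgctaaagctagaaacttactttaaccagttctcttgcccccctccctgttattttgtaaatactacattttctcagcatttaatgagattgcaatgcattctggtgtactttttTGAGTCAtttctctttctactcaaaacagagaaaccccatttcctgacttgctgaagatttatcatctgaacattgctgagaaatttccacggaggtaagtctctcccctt

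All 8 genes had a window, 14 in all. The GC box was present in 8 of the 14 windows, against 35.7% of all 32851 windows of the same length. These belonged to 6 of the 8 genes, Mtm1, Inf2, Igsf3, Tcerg1l, Gprin3 and Nectin3. Some windows of Mtm1, Inf2 and Mndal overlap within the gene, so the same bases can be counted again. The Inf2 window above holds 6 matches, 2 of which overlap each other, and the Tcerg1l window holds 3. G and C made up 69.7% of the Inf2 window, 73.0% of the Tcerg1l window, 47.7% of the Oprl1 window and 42.0% of the Mndal window, against a median of 52.7% over all windows. The other motifs were in fewer of the 14 windows. The AP-1 motif was in 3, of Mtm1 and Mndal (7.81% of all windows). The E-box (CACGTG) was in 5, of Mtm1, Inf2 and Gprin3 (7.15%), and the TATA box in 1, of Oprl1 (13.6%). The CCAAT box (CCAAT) was in 5, of Mtm1, Tcerg1l and Mndal (37.4%). The CRE (TGACGTCA, 1.79%) was in none of the 14. No motif was common to all 8 genes, and a match says nothing of whether a factor binds.

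Cacng2 itself ran from 3.21 to 41.7 in stg-/- cerebellum, against 470.2 to 486.7 in stg+/+ cerebellum, as the stg labels say. The forebrain arrays of stg+/+ replicates 1 and 2 and lh+/+ replicate 3 carried the pituitary hormone transcripts Gh and Prl at 2086 or more, against 194.8 or less on the other 15. Xist exceeded the Y-linked Eif2s3y on 2 of 3 arrays in every stg group, on 0 of 3 in every tg group and on 1 of 3 in every lh group, so the -/- and +/+ groups of a line were matched for sex while the lines were not.

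In stg cerebellum the representative probe sets of the 8 genes were higher in stg-/- than in stg+/+ by 1.37 to 1.78 on the log2 scale, and none of the 8 overlapped between the groups. Over all 27022 probe sets tested, 0.525% were called higher and 8.13% lay higher without overlap, but the members were picked from exactly these values. At the edge of the choice stood Gprin3 at 1.37, in place 13 when genes were ranked by their called rise, and the next gene down, Cdh7, also at 1.37. Other genes above that edge, such as Mapk13, Sox4, Homer2, Nos1 and Scn3b, are not members. Of the 22 probe sets that passed the filter, 21 were above 0 (52.3% of all probe sets were) and 19 did not overlap.

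Mtm1 encodes myotubularin, a phosphatase that removes the 3-phosphate from phosphoinositides on endosomes, and it is X-linked. Its signal (1434278_at) was 1496, 1232 and 1443 in stg-/- cerebellum, against 441, 375 and 658 in stg+/+ cerebellum. Each stg-/- array was higher than every stg+/+ array. The log2 difference was 1.53 (SE 0.25).

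The probe sets of Mtm1 did not behave alike. A second one (1454904_at) was 864, 629 and 913 in stg-/- cerebellum, against 120.0, 109 and 239 in stg+/+ cerebellum, a difference of 2.41. The third (1416934_at) was 125, 139.6 and 117 in stg-/- cerebellum, against 146, 122 and 149 in stg+/+ cerebellum, and the groups overlapped (-0.12). Mtm1 therefore rose on 2 of its 3 probe sets.

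Inf2 encodes a formin, which both builds and severs actin filaments. Its signal was 470.1, 329.5 and 503 in stg-/- cerebellum, against 118, 166 and 106 in stg+/+ cerebellum. Every stg-/- array was higher than every stg+/+ array, by 1.72 (SE 0.19) on the log2 scale. Its other probe set differed by 1.10. 

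Oprl1 encodes the nociceptin receptor, an inhibitory G protein-coupled receptor of the opioid family. Its signal was 238, 128 and 206 in stg-/- cerebellum, against 43.6, 58.3 and 53.5 in stg+/+ cerebellum. The lowest stg-/- array, replicate 2, was still higher than the highest stg+/+ array. The difference was 1.78 (SE 0.25), and it was 1.48 and 1.88 on its other probe sets.

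The signal of Tcerg1l was 151, 127 and 154 in stg-/- cerebellum, against 58.1, 45.8 and 45.01 in stg+/+ cerebellum. The arrays of each group lay close together and the groups were far apart, with a difference of 1.48 (SE 0.23).

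Igsf3 and Nectin3 encode membrane proteins of the immunoglobulin superfamily, and Nectin3 is an adhesion molecule of cell junctions and synapses. Igsf3 was 172, 199.6 and 249 in stg-/- cerebellum, against 77.8, 68.0 and 61.1 in stg+/+ cerebellum. Nectin3 was 305, 319 and 330.0 in stg-/- cerebellum, against 99.7, 111 and 156 in stg+/+ cerebellum. Neither gene overlapped between the groups, and the differences were 1.53 (SE 0.18) for Igsf3 and 1.38 (SE 0.18) for Nectin3. The other probe sets of Igsf3 differed by 1.34 and 1.46, and the 5 others of Nectin3 by 0.62 to 1.12.

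Gprin3 belongs to a family named for inducing neurite outgrowth downstream of G proteins. Its signal was 146, 99.6 and 210.4 in stg-/- cerebellum, against 38.2, 55.6 and 75.1 in stg+/+ cerebellum. The groups did not overlap, but the spread was wide in both, and the difference was 1.37 (SE 0.26). On its second probe set it was 0.85 and the groups overlapped.

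Mndal belongs to the interferon-inducible p200 family of nuclear proteins. Its signal was 261, 623 and 382 in stg-/- cerebellum, against 96.5, 135 and 160.1 in stg+/+ cerebellum. All stg-/- arrays were higher, yet they spread more than 2-fold among themselves. The difference was 1.61 (SE 0.36), and 1.40 on its second probe set. A further probe set is shared by Mndal and 3 other genes of the p200 family, 4 symbols in all, and was not used.

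**Figure D1:**
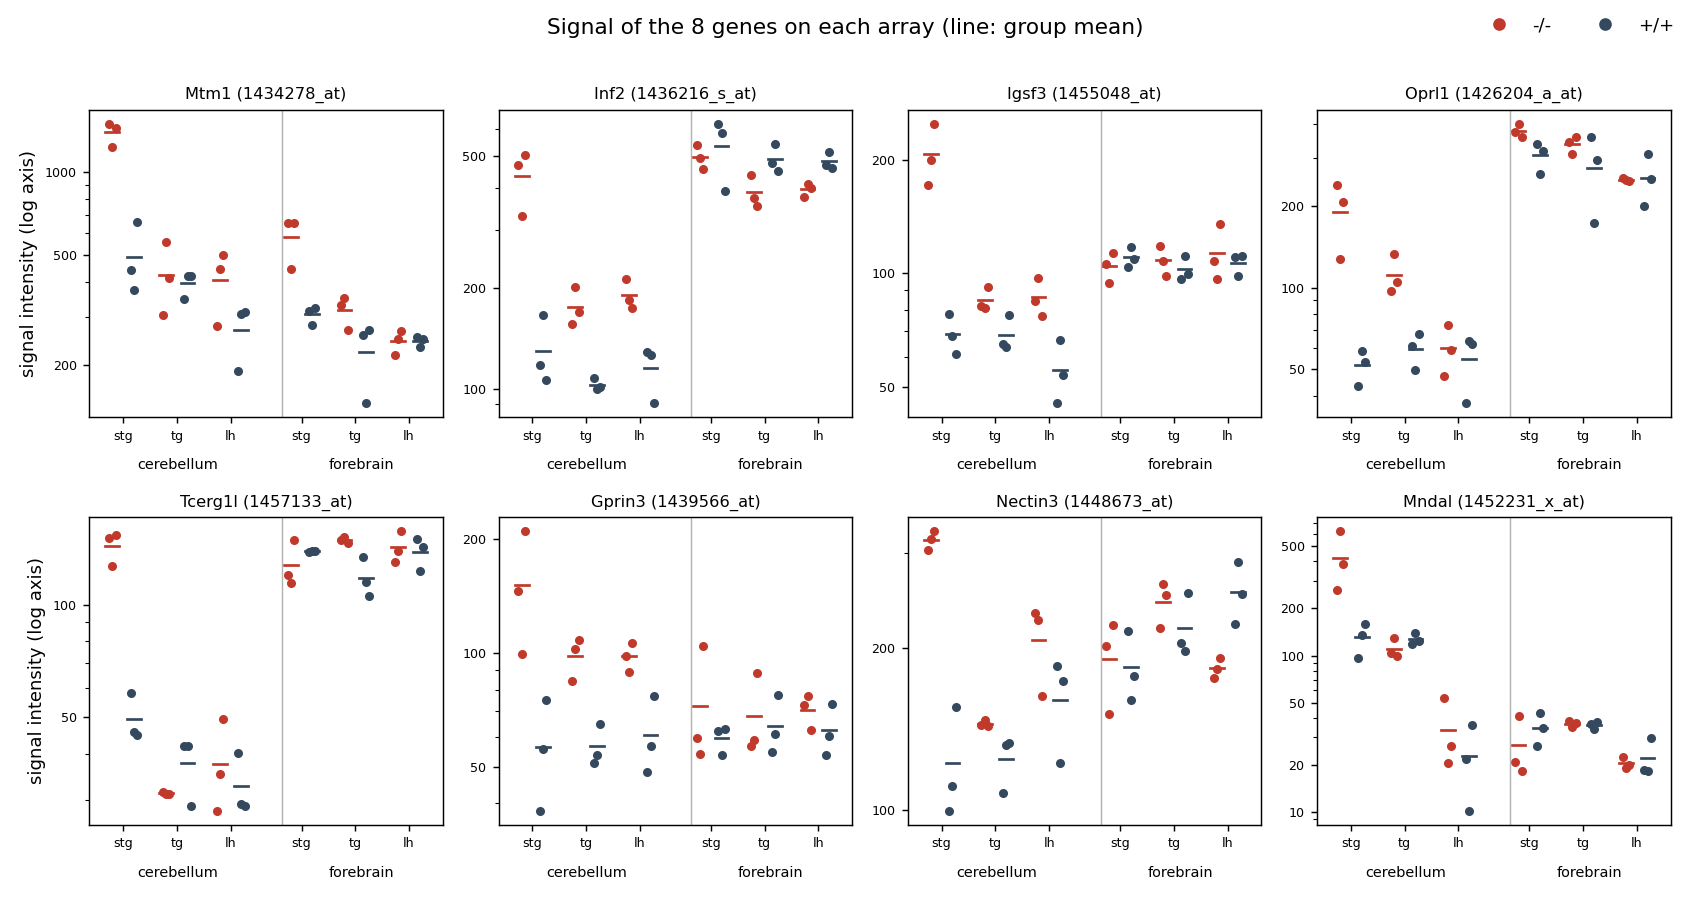
Signal of the representative probe set of each of the 8 genes on every array (log axis), by line and tissue, -/- in red to the left of +/+ in blue, with a line at the mean of 3 arrays. In stg cerebellum the red points lie above the blue points in all 8 panels, and Mndal in lh cerebellum lies lower than in the cerebella of the other lines.

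The rises were next set beside the other lines, whose arrays entered the stg comparison through the joint estimate of the spread. In tg cerebellum none of the 8 genes was called (0.574% of all probe sets were), and the differences ran from -0.23 to 0.88. In lh cerebellum none was called either (0.155% of all were), and the differences ran from 0.14 to 0.72, above 0 for all 8 (53.9% of all probe sets lay above 0). Since the members were named for not rising there, the lack of calls is part of the choice. The groups nevertheless did not overlap, with -/- higher, for 5 of the 8 genes in tg cerebellum (7.23% of all probe sets) and for 3 of the 8 in lh cerebellum (7.21% of all).

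Inf2, Igsf3 and Gprin3 lay higher without overlap in both lines. The signal of Inf2 was 156, 202 and 169.9 in tg-/- cerebellum, against 108, 99.8 and 101 in tg+/+ cerebellum, a difference of 0.75 (SE 0.19). It was 213, 185 and 174 in lh-/- cerebellum, against 129, 127 and 90.6 in lh+/+ cerebellum, a difference of 0.72 (SE 0.19). All -/- arrays were higher than all +/+ arrays of their line, but neither passed the test after Benjamini-Hochberg adjustment (limma, adjusted p = 0.0885 and adjusted p = 0.160). The other probe set of Inf2 differed by 0.42 in tg and by -0.03 in lh cerebellum.

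Oprl1 was 97.3, 133 and 105 in tg-/- cerebellum, against 61.2, 49.7 and 67.4 in tg+/+ cerebellum (difference 0.88, SE 0.25, limma adjusted p = 0.172). In lh cerebellum it was 47.2, 73.2 and 59.1 in lh-/- mice, against 37.6, 63.5 and 62.3 in lh+/+ mice, and the groups overlapped. With array weights in the fit, Inf2 and Oprl1 were called higher in tg cerebellum (adjusted p = 0.00846 and adjusted p = 0.0237, limma). The absence of calls for these 2 genes in tg thus depended on the fit.

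Gprin3 was 84.4, 102 and 108 in tg-/- cerebellum, against 51.0, 53.7 and 65.0 in tg+/+ cerebellum. It was 98.3, 89.3 and 106 in lh-/- cerebellum, against 48.5, 56.7 and 76.95 in lh+/+ cerebellum. The differences were 0.77 in tg and 0.69 in lh, with adjusted p = 0.322 and adjusted p = 0.464 (limma).

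Tcerg1l and Mndal lay below 0 in tg. Tcerg1l was 31.6, 31.2 and 31.2 in tg-/- cerebellum, against 42.1, 42.0 and 29.1 in tg+/+ cerebellum, and the groups overlapped. Mndal was 103, 130.3 and 98.9 in tg-/- cerebellum, against 119, 139.7 and 124 in tg+/+ cerebellum. Igsf3, Nectin3 and Mtm1 differed by 0.30, 0.22 and 0.07 in tg cerebellum and by 0.63, 0.37 and 0.59 in lh cerebellum. The second probe set of Mtm1 lay higher without overlap in lh cerebellum, by 0.88 (limma adjusted p = 0.382). The third differed by 0.43 there, with overlap.

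In the forebrain of the stg line none of the 8 genes was called (0.0111% of all probe sets were, all of them lower), and 4 of the 8 differences lay above 0 (50.4% of all). The group is named for a rise in cerebellum only, so the lack of calls in forebrain may be part of the choice too. All differences but that of Mtm1 lay between -0.39 and 0.31.

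Mtm1 was the exception. It was 654, 445 and 651 in stg-/- forebrain, against 315, 279 and 322 in stg+/+ forebrain. All stg-/- arrays were higher, by 0.91 (SE 0.19, unadjusted p = 0.000155, limma adjusted p = 0.597). On the second probe set it was 277, 203 and 345 in stg-/- forebrain, against 60.7, 63.1 and 109.9 in stg+/+ forebrain. That difference was 1.80 with adjusted p = 0.0781 (limma), so neither passed the threshold, and the third probe set differed by 0.32. The name of the group, with its rise in cerebellum only, does not describe the Mtm1 values in forebrain, which lay apart in the same direction.

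Oprl1 also lay higher without overlap in stg forebrain, at 374, 401 and 359 in stg-/- mice, against 337, 263 and 319.7 in stg+/+ mice, a difference of 0.31. Without overlap and higher were 3.59% of all probe sets in that comparison. In tg forebrain the differences of the 8 genes ran from -0.33 to 0.53, and in lh forebrain from -0.46 to 0.18. None was called in either (0.189% and 0.0148% of all probe sets were). Nectin3 in lh forebrain was 176, 183 and 191 in lh-/- mice, against 221, 289 and 252 in lh+/+ mice, lower on every array. Whether a change differed between the tissues of a line was tested for tg and lh in a fit over 36 arrays. None of the 8 genes was called there, where 0.0259% of all probe sets in tg and 0.0111% in lh were.

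**Figure D2:**
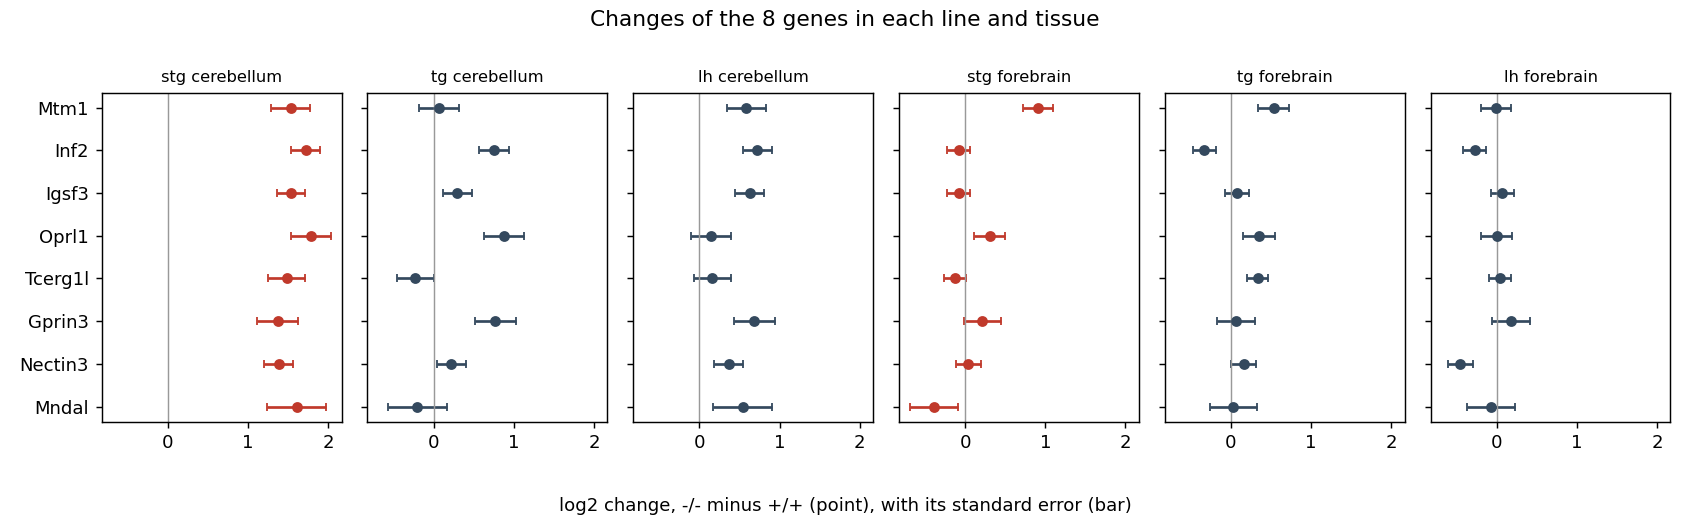
Log2 change (-/- minus +/+) of each of the 8 genes in the 3 cerebella and the 3 forebrains, with its standard error. In stg cerebellum all 8 lie between 1.37 and 1.78. In the forebrains Mtm1 in stg, at 0.91, is the highest point.

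Which of the 8 were forebrain-type was asked in the +/+ mice of the tg and lh lines, so that no stg array entered the difference, although the fit over 36 arrays took its spread from the stg arrays too. Against forebrain, 5 of the 8 genes were lower in cerebellum, 2 were higher, and Gprin3 was not called. Over all probe sets 22.7% were lower and 26.9% higher in cerebellum. A forebrain-type probe set was defined as called and lower in cerebellum by at least 1 on the log2 scale, which 7.16% of all probe sets met.

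Inf2, Oprl1 and Tcerg1l met it. Inf2 averaged 102.9 ± 4.2 in tg+/+ and 115.3 ± 21.5 in lh+/+ cerebellum, against 489.0 ± 48.4 in tg+/+ and 480.6 ± 28.5 in lh+/+ forebrain (SD, n = 3 each). The difference, cerebellum minus forebrain, was -2.13 (SE 0.12, limma adjusted p = 5.51e-16). No cerebellum array reached any forebrain array. In stg-/- cerebellum the mean signal of 434.1 was 81.3% of the 534.0 in stg+/+ forebrain. Of these forebrain arrays, replicates 1 and 2, which are high in Gh and Prl, had 624 and 586, and replicate 3 had 391, of which the mutant mean was 110.9%.

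Oprl1 averaged 59.4 ± 9.0 in tg+/+ and 54.4 ± 14.6 in lh+/+ cerebellum, against 275.1 ± 93.5 in tg+/+ and 253.7 ± 55.1 in lh+/+ forebrain (SD, n = 3 each). The difference was -2.14 (SE 0.16, limma adjusted p = 7.43e-13), again without overlap, as for 27.6% of all probe sets between the tissues. The mean of 190.6 in stg-/- cerebellum was 62.2% of the 306.7 in stg+/+ forebrain. Its other probe sets gave -1.92 and -1.90 between the tissues.

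Tcerg1l averaged 37.7 ± 7.5 in tg+/+ and 32.9 ± 6.4 in lh+/+ cerebellum, against 118.4 ± 14.7 in tg+/+ and 138.7 ± 13.9 in lh+/+ forebrain (SD, n = 3 each). The difference was -1.79 (SE 0.12, limma adjusted p = 9.79e-14). The mean of 143.7 in stg-/- cerebellum was 103.2% of the 139.2 in stg+/+ forebrain. For this gene the mutant cerebellum stood at the forebrain level, but the stg-/- values were among those that chose it. Among the 8 genes such shares ran from 62.2% for Oprl1 to 1219% for Mndal. Against stg+/+ forebrain replicate 3 alone the share was 59.6% for Oprl1 and 103.3% for Tcerg1l.

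Igsf3 and Nectin3 were lower in cerebellum by less than the limit of 1. Igsf3 differed by -0.75 (SE 0.11, limma adjusted p = 1.04e-06) and Nectin3 by -0.73 (SE 0.12, limma adjusted p = 6.01e-06). Both were without overlap. Their mean signals in stg-/- cerebellum, 206.9 and 317.8, were above the 110.2 and 184.5 of stg+/+ forebrain. The other probe sets of Igsf3 were called lower in cerebellum too (-0.71 and -0.91). For Nectin3 only the second probe set was called besides the brightest (-0.74). Its dimmer ones, at 0.03, -0.07 and -0.64, overlapped and were not called, and the dimmest could not be tested.

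Mtm1 and Mndal were called higher in cerebellum, with tissues that overlapped, and Gprin3 was not called. Mtm1 differed by 0.48 (SE 0.17, limma adjusted p = 0.0170). This call was lost without tg+/+ forebrain replicate 2 (0.34, adjusted p = 0.0821, limma), an array that was also low in the cortical markers Tbr1, at 84.1, and Neurod6, at 159.5. It was also lost without lh+/+ cerebellum replicate 3 (0.42, adjusted p = 0.0510, limma). The other probe sets of Mtm1 were called higher in cerebellum too. The second differed by 0.66 with overlap (limma adjusted p = 0.0161), and the third by 1.28 without overlap (limma adjusted p = 8.83e-08). Mndal differed by 0.83 (SE 0.24, limma adjusted p = 0.00435), but its lines were unlike. It averaged 127.3 ± 11.1 in cerebellum and 35.97 ± 1.90 in forebrain of tg+/+ mice, against 22.7 ± 13.1 in cerebellum and 22.3 ± 6.5 in forebrain of lh+/+ mice (SD, n = 3 each), so the tissues stood apart in tg+/+ and not in lh+/+ mice. Gprin3 differed by -0.11 (SE 0.18, limma adjusted p = 0.639).

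**Figure D3:**
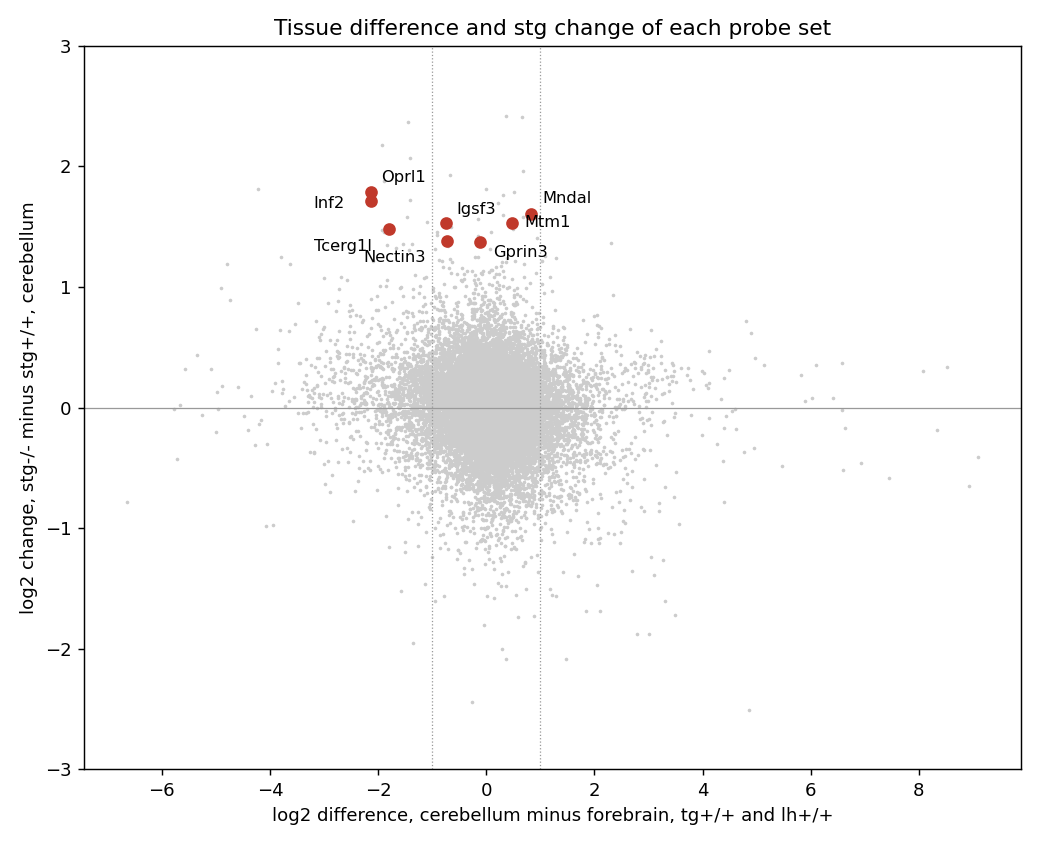
Each point is a probe set; x is the log2 difference between cerebellum and forebrain in tg+/+ and lh+/+ mice, y the log2 change in stg-/- cerebellum against stg+/+ cerebellum, and the dotted lines mark differences of 1 in either direction. The 8 members (red) spread from -2.14 to 0.83 on the x axis, 3 of them left of the dotted line.

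The level of Mndal in cerebellum differed between lines. It was 119, 139.7 and 124 in tg+/+ cerebellum, against 21.7, 10.2 and 36.3 in lh+/+ cerebellum. All tg+/+ arrays were higher than all lh+/+ arrays, by 2.47 (SE 0.36, limma adjusted p = 0.00187). Among all probe sets 0.618% were called in that comparison, and none of the other 7 genes was. In stg-/- cerebellum Mndal reached 261 to 622.7, while in forebrain it lay between 18.3 and 42.8 in all groups. Among the +/+ forebrains none of the 8 differed by the moderated F test (0.414% of all probe sets did), the lowest adjusted p being 0.632 (limma). For Mndal this test could miss a line difference, since its forebrain signal was low and its second probe set failed the filter there.

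The next step was to ask whether forebrain-type transcripts as a class were higher in stg cerebellum, with the class set from the +/+ mice of the tg and lh lines. Of the 1936 forebrain-type probe sets, 1379 also passed the filter on low signal in cerebellum, and the others were not counted. Of the 1379, 41 were called higher and 7 lower in stg-/- cerebellum, 2.97% and 0.508%. Over all 27022 probe sets 142 were higher and 210 lower, 0.525% and 0.777%. The median change of the class was 0.11, against 0.01 over all. With the replicate number as a block, 72 forebrain-type probe sets were higher and 19 lower, beside 418 higher and 600 lower over all. Without stg-/- replicate 3 or without stg+/+ replicate 1, 26 forebrain-type probe sets were higher, and without stg-/- replicate 1, 27.

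Cerebellum-type probe sets, higher in cerebellum by at least 1, showed the opposite balance. They made up 5.78% of all probe sets tested. Of 1563, 13 were higher and 82 lower in stg-/- cerebellum, 0.832% and 5.25%, and their median was -0.03. The members Inf2, Oprl1 and Tcerg1l are among the 41, so they add no support to the count. These class counts are described beside the background and were not tested.

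By gene, 27 forebrain-type genes were higher and 6 lower. Among the named rises were Sox4, a transcription factor of immature neurons, at 2.37 (limma adjusted p = 0.0102), and Homer2, a postsynaptic scaffold, at 2.18 (limma adjusted p = 8.70e-06). Scn3b, a sodium channel beta subunit, rose by 1.81 (limma adjusted p = 0.000216), and Kcnk2, a potassium leak channel, by 1.35 (limma adjusted p = 5.92e-06). Ly6h, a GPI-anchored neuronal protein, rose by 1.19 (limma adjusted p = 0.000687). Among the falls were Ryr3, an intracellular calcium release channel, which fell by 1.47 (limma adjusted p = 0.00453), and Ntng1, a netrin-related axonal protein, which fell by 1.15 (limma adjusted p = 0.000373).

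For the other lines the class was set anew by the same limits from the +/+ mice of the 2 lines not compared, stg and lh for tg, and stg and tg for lh, so its probe sets differ between lines. In tg cerebellum 10 of 1342 forebrain-type probe sets were higher and 4 lower (over all probe sets 0.344% were higher and 0.229% lower), with a median of 0.07 (-0.01 over all). In lh cerebellum 5 of 1343 were higher and 1 lower (over all 0.0555% were higher and 0.0999% lower), with a median of 0.13 (0.02 over all). The median of each such forebrain-type class lay above that of all probe sets in its line. Cerebellum-type probe sets, set anew in the same way, were more often lower than higher in both lines, as in stg. In tg 6 of 1670 were higher and 13 lower (0.359% and 0.778%), with a median of -0.05. In lh 3 of 1732 were higher and 12 lower (0.173% and 0.693%), with a median of -0.04. No test of a difference between the lines was made, because the members were chosen on the stg values.

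**Figure D4:**
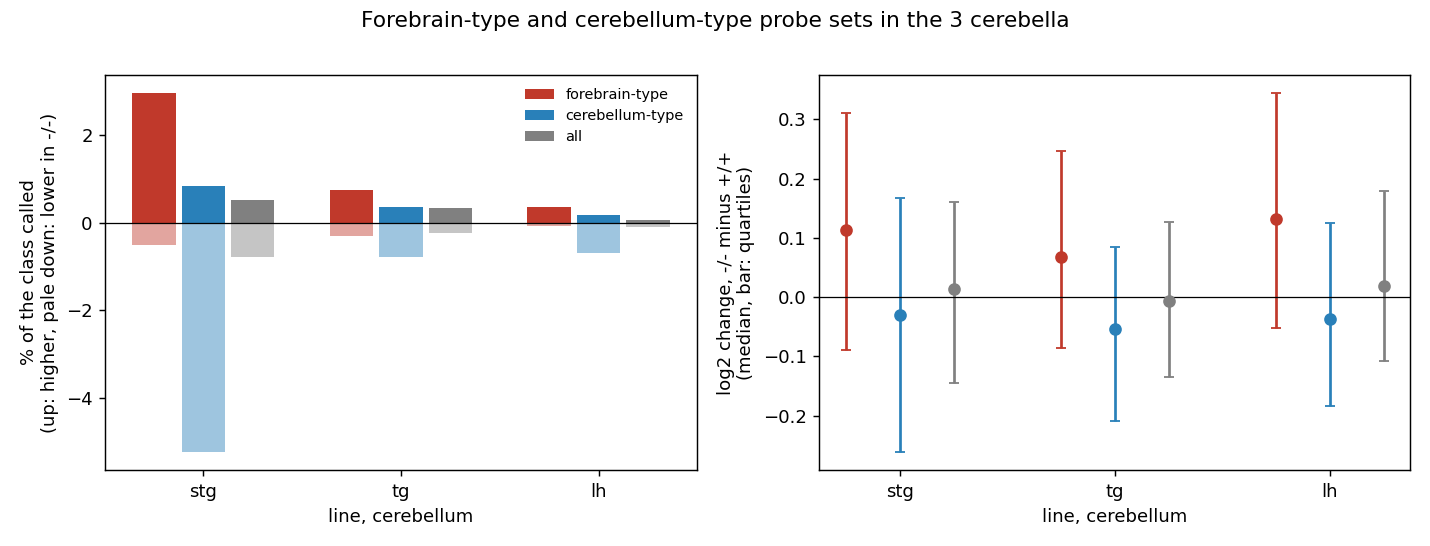
Left, percent of forebrain-type, cerebellum-type and all probe sets called higher (upward) or lower (pale, downward) in -/- than in +/+ cerebellum of each line; right, the median log2 change of each class with its quartiles. In stg 2.97% of the forebrain-type class were higher, and the medians of that class lie above 0 in all 3 lines.

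The markers that define forebrain tissue were read beside these rises. Of 7 cortex and hippocampus markers tested in stg cerebellum, 0 were called. The summed signal of all 12 on the array ran from 941.0 to 1069 in stg-/- cerebellum (median 1054), against 751.4 to 959.0 in stg+/+ cerebellum (median 912.3), while in stg+/+ forebrain it ran from 10725 to 14360. Tbr1, a cortical transcription factor, was 2.48 to 11.98 in stg-/- cerebellum, against 1.58 to 6.59 in stg+/+ cerebellum. Neurod6 was 34.7 to 45.7 in stg-/- cerebellum, against 44.6 to 59.6 in stg+/+ cerebellum, and Nrgn was 35.0 to 63.5 in stg-/-, against 39.0 to 56.2 in stg+/+. These 3 markers overlapped or were lower in stg-/- cerebellum, and all were far below their forebrain signal in both groups. Over the 7 tested, 4 lay above 0 and the median was 0.12, against 0.01 over all probe sets. None of the 4 tested striatum markers was called, although Ppp1r1b, a phosphatase inhibitor of striatal neurons, ran from 476.4 to 645.5 in stg-/- cerebellum, against 348.1 to 459.3 in stg+/+ cerebellum, without overlap. Of these 4, 2 lay above 0 and the median was 0.05. The summed signal of the 6 striatum markers on the array overlapped, at 1376 to 1897 in stg-/- cerebellum, against 1532 to 1675 in stg+/+ cerebellum. Of 6 thalamus and midbrain markers tested, 1 was higher, Slc17a6, a vesicular glutamate transporter, at 0.88 (limma adjusted p = 0.00376), and 1 lower, Ntng1, given above. Of these 6, 3 lay above 0 and the median was 0.09. The summed signal of the 7 on the array ran from 2953 to 3317 in stg-/- cerebellum, against 2497 to 2786 in stg+/+ cerebellum, without overlap. In stg+/+ forebrain it ran from 2809 to 2830.3, close to stg+/+ cerebellum, so this sum hardly separates the tissues. Between the tissues of tg+/+ and lh+/+ mice, 4 of the 7 were called lower in cerebellum and 1 higher. Fewer cells of a type and less RNA per cell cannot be told apart in these tissue extracts.

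Markers of cerebellar cells, glia, vessels and choroid plexus were read beside the members. Among 10 granule cell markers 2 were lower and none higher in stg-/- cerebellum: Gabra6, a GABA-A receptor subunit of granule cells, fell by 0.41 (limma adjusted p = 0.0129) and Kcnd2, a potassium channel, fell by 0.58 (limma adjusted p = 0.00166). These shifts were not confined to stg. Gabra6 was lower without overlap in tg-/- cerebellum (6343 to 7200, against 7941 to 9171) and in lh-/- cerebellum (5766 to 6679, against 7726 to 8572). No granule cell marker was called in tg or lh. The median of the 10 was -0.08 in stg, -0.06 in tg and -0.25 in lh. Of 5 immature granule cell markers 1 was higher in stg-/- cerebellum, Mycn, at 0.99 (limma adjusted p = 0.0281). All 9 Purkinje cell markers lay above 0 but none was called. Of 8 astrocyte markers 1 was higher, Gfap, at 0.93 (limma adjusted p = 0.0283). All 6 choroid plexus markers lay above 0 in each of the 3 cerebella, with medians of 0.54 in stg, 0.60 in tg and 1.24 in lh, and none was called. Their summed signal overlapped in stg, at 12353 to 16067 in stg-/-, against 3875 to 13762 in stg+/+ cerebellum. All 8 astrocyte, 5 oligodendrocyte and 6 microglia markers tested also lay above 0 in stg, and 2 of 5 endothelial ones did. Over all probe sets 52.3% lay above 0 in stg, 48.4% in tg and 53.9% in lh cerebellum. The part of these shifts in the rises of the 8 genes was not tested.

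Few relatives of the 8 genes passed the test. Among 17 myotubularins and endosomal phosphoinositide enzymes tested in stg cerebellum 1 was higher, Mtm1 itself, and the median was -0.06. Among 11 formins Inf2 was higher and Diaph2, another formin, fell by 0.89 (limma adjusted p = 0.0188). Among 9 nectins and nectin-like proteins, each read on 1 probe set, 1 was higher, Nectin3. Cadm1, a nectin-like protein, was called higher on a probe set that this count did not use (0.42, limma adjusted p = 0.0202). In the opioid list, Oprl1 was the 1 higher of 4 tested, while Pnoc, which encodes the precursor of its ligand nociceptin, was at -0.12 (limma adjusted p = 0.935) and Penk at -0.33 (limma adjusted p = 0.197).

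Smaller families had little to compare. Of 3 GPRIN genes and 3 EWI immunoglobulin genes 1 each was higher, Gprin3 and Igsf3. Of 12 p200 family genes 2 passed the filter, Mndal and Ifi203, which was at 0.87 (limma adjusted p = 0.201). Of 9 interferon response genes 0 were called in stg cerebellum, with a median of 0.06. The members are counted in their own lists, and the choice fixes their calls.

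Within groups the 8 genes correlated weakly in most pairs. Over the 18 cerebellum arrays their log2 levels correlated pairwise at r from 0.33 to 0.90 (28 pairs), and these levels hold the stg rise that chose them. After the mean of each group was removed, the pairwise r ran from -0.43 to 0.61 with a median of 0.01. In forebrain it ran from -0.66 to 0.57. Inf2 and Igsf3 had the highest r of levels, 0.90, and Nectin3 and Mndal the lowest, 0.33.

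For each member the genes most like it in level over the 18 cerebellum arrays were listed, 16 cases in all. In 10 of the 16 the probe set compared was called higher in stg-/- cerebellum (0.525% of all probe sets were). These levels hold the stg rise that chose the members, so the count follows in part from the choice. Homer2 and Sox4 were each counted for more than 1 member. Ctbp2, Tenm2, Satb1, Nebl, Eps8 and H2aw, the other 6, were not called there on the probe set compared. Tenm2 was called higher on another probe set (0.81, limma adjusted p = 0.00557). Inf2 was closest to Ly6h (r = 0.95) and Homer2 (r = 0.95), Igsf3 to Sox4 (r = 0.94) and Homer2 (r = 0.94), and Oprl1 to Sox4 (r = 0.93) and Kcnk2 (r = 0.88). Tcerg1l was closest to Scn3b (r = 0.93) and Satb1 (r = 0.90), and Mtm1 to Ctbp2 (r = 0.93) and Tenm2 (r = 0.92). Gprin3 was closest to Alcam and Nebl (r = 0.87 each) and Nectin3 to Mapk13 and Eps8 (r = 0.85 each). Mndal was closest to H2aw (r = 0.94) and Bcl2l11 (r = 0.90). These arrays share lines and genotypes, and the values are descriptions.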

How the data were processed

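RNA of 36 mouse samples was measured on 1-colour Affymetrix arrays. The authors deposited 1 signal intensity for each probe set on each array, on a linear scale, and the authors' steps before deposit are not given in the sources used here. On every array the deposited intensities had a mean of 150.0 once 2% of them were trimmed from each tail, and they ran from 0.0223 to 16805. The small number of arrays per group bounds the precision.

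The scale of analysis was log2(signal + 2.98), the constant being the 10th percentile of all values. It understates changes of dim probe sets. Array medians spanned 0.326, below the limit of 0.5 for quantile normalization. After 64 control probe sets were left out, those with a mean above the 40th percentile were kept, 27022 in each fit. Tests used limma 3.58.1 (R 4.3.3; group means, eBayes with an intensity trend, two-sided, Benjamini-Hochberg adjustment over all probe sets kept, called at 0.05). Each -/- group was set against the +/+ group of its line in a joint fit of the 18 arrays of that tissue, and cerebellum against forebrain in a fit over 36 arrays. Every log2 difference is -/- minus +/+, or cerebellum minus forebrain. The code was tested on simulated data.

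Gene symbols came from the platform table: 34958 probe sets had 1 symbol, 932 several and 9211 none, and 34754 of the first were updated through Entrez ID to GRCm38.p6. Members and gene lists were chosen with earlier results of these data known. All probe sets of the members were followed. Other genes were named as list members, as the 8 largest rises and the 4 largest falls of the forebrain-type class by gene (12 in all), or as the 2 genes most correlated with a member. Promoter windows came from RefSeq and were searched in Python 3.

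In stg cerebellum the replicate numbers of the titles were read as pairs from the data, since deviations from the group mean of same-numbered arrays correlated at 0.156, 0.188 and 0.380. The labels give no pairing. In tg and lh 1 pair each was at or below 0.1 (0.040 and 0.095). Every lh number still correlated best with its own number, as in stg, whereas tg replicate 2 did not.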

Additional observations from a re-analysis of the deposited data

Results flagged for a closer look

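Inf2 in tg and lh mice was singled out because its -/- arrays lay above all +/+ arrays in cerebellum and below all +/+ arrays in forebrain of the same line. In tg forebrain it was 437, 373 and 354 in tg-/- mice, against 475, 543 and 449 in tg+/+ mice. In lh forebrain it was 377, 411 and 400.1 in lh-/- mice, against 469, 513 and 460.2 in lh+/+ mice. The difference of the change between the tissues, cerebellum minus forebrain, was 1.08 in tg (SE 0.24, limma adjusted p = 0.167) and 1.0005 in lh (SE 0.24, limma adjusted p = 0.224) in a fit over 36 arrays. On the second probe set of Inf2 it was 0.65 in tg and -0.09 in lh, and in lh its groups overlapped in both tissues. Neither passed the adjustment on the brightest probe set, although the unadjusted p was 8.02e-05 in tg and 0.000214 in lh. That test was chosen after the values were seen, for 16 differences in all (8 genes in 2 lines), and 0.0259% of probe sets were called in tg and 0.0111% in lh. Its cause was not tested. Groups of 3 arrays were too small for a check of single outlying arrays.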

How the results depend on the processing

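All 8 genes kept a positive change in stg cerebellum under each alternative run; their calls there were part of the choice. Mndal was not called on its second probe set, without the intensity trend and without stg-/- replicate 2 or 3 or any 1 stg+/+ replicate. Gprin3 was not called on its second probe set (0.85), with only the 6 arrays compared, and without stg-/- replicate 3 or stg+/+ replicate 1. The cause was not tested. The tissue calls of Mtm1, Inf2, Oprl1, Tcerg1l, Igsf3 and Mndal held with the other probe sets where there were any that could be tested. That of Nectin3 held on its second probe set and not on its dimmer ones. The genes higher in cerebellum numbered 1 with a filter at the 60th percentile, and 1 to 2 when single arrays were left out. Forebrain-type probe sets lower in stg-/- cerebellum numbered 2 with only the arrays compared, where all called probe sets fell to 194. With the replicate number as a block 72 were higher and 19 lower and all calls numbered 1018. With line and series of records as a block 64 were higher and 16 lower, with 689 calls in all. Leaving out single arrays gave 26 to 40 higher (26 without stg+/+ replicate 1 or stg-/- replicate 3, 27 without stg-/- replicate 1), with 225 to 291 calls in all. Neither block changed a member's call in stg cerebellum. Between the tissues only the block by line and series of records was run, and it changed no member's call. In lh cerebellum Mtm1 was called higher under the replicate block (0.59, limma adjusted p = 0.0467). The labels give no pairing there, as in stg.

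Small changes in the other comparisons, none called either way, changed sign as follows. Quantile normalization gave -0.044 for Mndal in tg forebrain and 0.0056 for Oprl1 in lh forebrain. Array weights gave -0.0023 and 0.0064 for Mndal in tg and lh forebrain. Without the 3 arrays high in Gh and Prl, which leaves 1 stg+/+ array assumed to vary like the others, Inf2 in stg forebrain was 0.34, and in lh forebrain Mtm1 was 0.0039, Oprl1 0.00050 and Mndal 0.13. The second probe set gave -0.21 for Mtm1 in tg cerebellum, -0.031 for Inf2 and -0.016 for Igsf3 in lh cerebellum, 0.10 for Igsf3 in stg forebrain, and -0.024 for Oprl1 and -0.050 for Nectin3 in tg forebrain. In lh forebrain it gave 0.44 for Mtm1, 0.058 for Inf2, 0.10 for Oprl1 and -0.32 for Gprin3. Leaving out single arrays gave -0.15 to 0.29 for Mtm1 in tg cerebellum, and in lh cerebellum -0.089 to 0.30 for Oprl1 and -0.041 to 0.33 for Tcerg1l. In stg forebrain it gave -0.29 to 0.046 for Inf2, -0.067 to 0.39 for Gprin3 and -0.070 to 0.20 for Nectin3. In tg forebrain it gave -0.13 to 0.20 for Gprin3 and -0.0075 to 0.063 for Mndal. In lh forebrain it gave -0.071 to 0.068 for Mtm1, -0.062 to 0.17 for Igsf3, -0.16 to 0.15 for Oprl1, -0.043 to 0.098 for Tcerg1l and -0.18 to 0.13 for Mndal.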
